A study of Mus musculus with 67 samples.

Results

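The 200 genes described here lost RNA in sorted WT mouse microglia 24 h after lipopolysaccharide (LPS) and stayed within set limits in cultured microglia. They were taken from 45707 rows that stand in the same position in a table of sorted cells and a table of cultures. The tables give no gene name or identifier for any row, so members are called by their row number from the top. They were selected on measured values, as log2(CPM + 1), where CPM is a row's count scaled to the total of its library. A row qualified when its mean in sorted WT libraries was lower by at least 1 after LPS for 24 h than with vehicle. It also had to differ by less than 1 in each of 4 culture contrasts: WT LPS minus vehicle, WT Tg+PDBu minus vehicle, KO Tg+PDBu minus vehicle, and KO minus WT with vehicle. The fall in sorted WT cells was met by 842 rows, of which 522 failed a culture limit and 320 met every limit. The 200 rows with the lowest difference in sorted WT cells, called S below, were kept.

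Both genotypes carried floxed Orai1. WT mice were Orai1 fl/fl, and KO mice were Orai1 fl/fl with Cx3CR1-cre/ERT2, a tamoxifen-inducible Cre driven by Cx3cr1, a gene of microglia and related myeloid cells. The WT mice lacked the Cre, so loss of Orai1 and presence of the Cre cannot be told apart, and both genotypes received tamoxifen. The sorted cells were microglia purified by FACS from the whole brain, at an age of 10 to 12 weeks and 30 to 35 days from the tamoxifen. Treatment was vehicle (PBS) or 1 mg/kg LPS, with LPS for 24 h in both sexes and for 6 h in males. The labels give no time for the vehicle mice. The sorted WT groups held 6 vehicle, 8 LPS 24 h and 3 LPS 6 h libraries, and the KO groups held 6, 7 and 3. The cultures were primary microglia from the hippocampus of newborn mice, exposed to 1 µM hydroxytamoxifen and then for 6 h to vehicle (DMSO), 10 ng/ml LPS, or a mix of 0.2 µM thapsigargin and 50 nM PDBu (Tg+PDBu). Each WT culture group held 6 libraries, and the KO groups held 6, 5 and 5. Sorted cells were labelled as total RNA and prepared from 0.97 ng with a SMARTer kit, whereas cultures were labelled as polyA RNA and prepared from 100 ng with a NEBNext kit. The sorted and cultured cells therefore differ in age, tissue, dose, time and library kit, and these cannot be told apart.

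Microglia are the resident macrophages of the brain. LPS, a component of the outer membrane of Gram-negative bacteria, is sensed through the receptor TLR4 and turns on NF-kB and, later, interferon signalling. Genes that mark resting microglia in the brain are known to lose expression both during such inflammation and when the cells are moved into culture. Orai1 forms the pore of a channel in the plasma membrane through which calcium enters once the endoplasmic reticulum has lost its own. Thapsigargin brings that loss about by blocking the pump that refills it. PDBu activates protein kinase C. Which of the 200 rows belong to any of these pathways cannot be read from the files, and the same holds for markers of microglia or of other cells.

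Total counts ran from 4989974 to 7596706 in sorted libraries and from 7868694 to 16070721 in cultures. Over the 26168 rows with counts in both tables, mean levels had a Spearman rho of 0.853, and with a table shifted by 1 to 3 rows rho was 0.328 to 0.34. This is a correlation across rows, which are not independent replicates. Without names Orai1 could not be checked, but row 1, which is no member, held 0 to 2 counts in the 17 sorted WT libraries and 505 to 1642 in the 16 KO libraries. A pair of 6 h libraries stood apart from the others of their group. Over 15146 rows that are no members, WT replicate 3 (library 70) and KO replicate 1 (library 71) lay nearer to the male vehicle mean of their genotype than to the other 6 h libraries, with root-mean-square distances of 0.6 and 0.617 against 0.784 and 0.777 on the log2 scale. The other 6 h libraries lay at 0.885 to 0.937 from vehicle and at 0.591 to 0.63 from each other's 6 h mean. Counts, medians and tests at 6 h are therefore given with and without libraries 70 and 71, a choice made after seeing the data.

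The selection itself sets the WT values that follow, and they are a description. S ran from -4.12 to -1.18 over the 200 rows, with a median of -1.49. The last row kept, row 30959, had S of -1.182, and the first row left out, row 3175, had -1.176. Closest to a culture limit among the members was row 11168, with a largest culture difference of 0.998, and row 582 just missed with 1.004. Most members were of moderate level, with a median of 13.8 CPM in sorted WT vehicle libraries and a range of 1.47 to 2017. In 124 of the 200, all 8 WT LPS 24 h libraries lay below all 6 WT vehicle libraries. The share of all rows with this WT pattern was not counted, so nothing is read from it. In 6 members, over 50% of the WT vehicle CPM came from 1 library.

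The sorted KO libraries had no part in the selection, and in them the members fell as a group. The summed level of the 200 rows was 11438 ± 1134 CPM (SD, n = 6) in KO vehicle libraries and 4672 ± 836 CPM (SD, n = 7) after LPS for 24 h. The vehicle libraries ran from 9264.5 CPM through a median of 11709 to 12444, and the LPS libraries from 3449.2 through 4808.1 to 6155.8. The groups did not overlap. In WT, whose libraries chose the rows, the sums were 12384.5 ± 653 CPM (SD, n = 6) and 4348 ± 887 CPM (SD, n = 8). In such bulk samples, fewer cells of a type and less RNA per cell cannot be told apart.

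**Figure D1:**
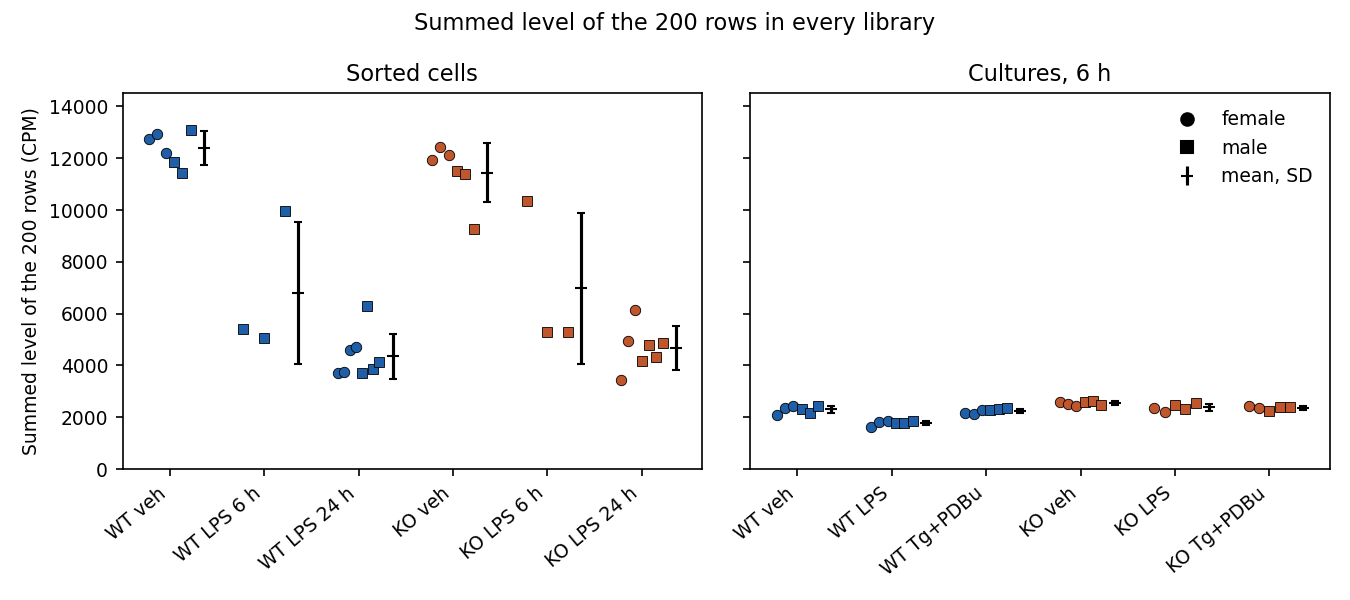
Summed CPM (vertical axis, from 0) of the 200 rows in each of the 33 sorted libraries (left) and 34 cultures (right), by genotype and treatment. Points are libraries (circles female, squares male) and bars are the mean and SD; all KO LPS 24 h libraries lie at or below 6155.8 CPM and all KO vehicle libraries at or above 9264.5, 1 library of each 6 h group lies near vehicle, and cultures lie between 1643.6 and 2634.6.

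Row by row, 143 of the 200 members fell in KO mice 24 h after LPS and none rose, in edgeR's quasi-likelihood test with Benjamini-Hochberg adjustment over all 15344 rows tested (adjusted p under 0.05). Among all rows tested, 10.8% were called lower and 12.6% higher. The filter on low counts passed 198 members, and 55 of the 198 were not called. Of the 198, 13 passed only through their vehicle libraries, so a fall in them was nearly fixed by the filter. Without those 13, a choice made after seeing the data, 133 of 185 members were lower, against 10.9% of the rows that pass without vehicle libraries. The fitted change was below 0 in 191 of the 198, with a median of -1.36 on the log2 scale against -0.01 over all rows tested. Row 44202 had no count in any KO LPS 24 h library. Setting it to its lower bound left the median at -1.36. This was fixed beforehand, since the row stayed below the median. The called members had a median of -1.61 and those not called a median of -0.80. At an unadjusted p under 0.05, 165 of 198 members were called (83.3%), against 34.4% of all rows tested.

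On the scale of the selection, log2(CPM + 1), the KO change had a median of -1.29 and ran from -3.54 to 2.37. It reached -1 or lower in 147 of the 200 members, against 2.06% of the 32089 rows with a sorted count. That share includes many rows too low to fall by 1, since 15344 rows passed the filter on low counts. The KO change lay below 0 in both sexes in 188 members. The share of all rows below 0 in both sexes was not counted, so nothing is read from that number. In 98 members all 7 KO LPS 24 h libraries lay below all 6 KO vehicle libraries, a pattern found in 6.63% of all rows tested. The library numbers of the 24 h and vehicle samples fall in separate runs, and the labels do not say what a run is. In the first run, with 3 KO vehicle and 4 KO LPS libraries, 97 members were called lower (6.56% of all rows) with a median of -1.78. In the second run, with 3 libraries each, 62 were called lower (3.41% of all rows) with a median of -1.24. No member was called higher in either run.

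**Figure D2:**
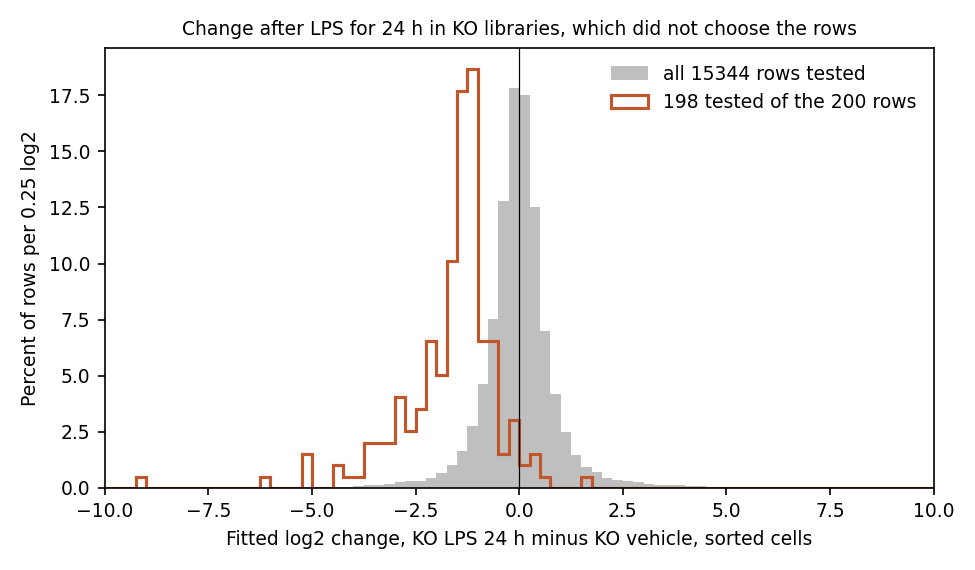
Distribution of the fitted log2 change, KO LPS 24 h minus KO vehicle in sorted cells (horizontal axis), as percent of rows per 0.25 log2 (vertical axis), for all 15344 rows tested (grey) and the 198 tested members (line). The members' median is -1.36 and that of all rows -0.01.

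The highest members in sorted WT vehicle libraries were rows 5545 and 15115. Row 5545 stood at 1733 CPM in the lowest KO vehicle library, with a median of 2000 and a highest value of 2174. After LPS for 24 h the KO libraries ran from 555.6 CPM through 797.7 to 1270. No LPS library reached the lowest vehicle library, and the fitted log2 change was -1.14 ± 0.185 (SE, edgeR adjusted p = 5e-05). Row 15115 ran from 976.4 CPM through 1319 to 1415 with vehicle and from 178.6 through 388.9 to 705.0 after LPS in KO mice. These groups did not overlap either, and the fitted change was -1.56 ± 0.355 (SE, edgeR adjusted p = 0.0018). WT means, which chose the rows, moved from 2017 to 845.5 CPM in row 5545 and from 1239 to 348 CPM in row 15115.

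These rows differed sharply in culture. Row 5545 had culture group means of 85.05 to 248.2 CPM. From vehicle to Tg+PDBu its means moved from 207.8 to 109 CPM in WT and from 144.4 to 85.05 CPM in KO. With LPS they were 248.2 CPM in WT and 146.3 CPM in KO. The Tg+PDBu differences in log2(CPM + 1) were -0.92 in WT and -0.76 in KO, close to the limit of 1. Row 15115 had at most 1 count in any of the 34 cultures and a highest culture group mean of 0.019 CPM, so it had no level from which a fall could have been seen there.

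The largest called falls in KO cells, among members above the level set for naming rows, were in rows 44202 and 35488. Row 44202 had 0 counts in all 7 KO LPS 24 h libraries. Its KO vehicle libraries held 0 CPM in the lowest, a median of 12.7 and 22.4 in the highest. Against a floor of 3 counts over the LPS group, its vehicle mean of 12.2 CPM made it at least 186-fold lower after LPS (edgeR adjusted p = 0.0096). Male vehicle replicate 3 was also at 0, so 1 vehicle library overlapped the LPS group. This row passed the filter only through its vehicle libraries, so a fall was nearly fixed by the filter and its p is no support. Row 35488 ran from 1.34 CPM through 10.9 to 29.8 in KO vehicle libraries. After LPS it was at 0 in 6 of the 7 libraries and at 4.26 CPM in male replicate 1, which lay above the lowest vehicle library (edgeR adjusted p = 0.0027). The calls on these rows were lost within 1 run of library numbers: row 44202 had an edgeR adjusted p of 1 in the second run and row 35488 one of 0.0789 in the first.

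The lowest S of all belonged to row 35425 at -4.12, yet its fall in KO cells was not called. KO vehicle libraries ran from 16.2 CPM through 33.9 to 63.95. After LPS, 4 of 7 KO libraries were at 0 and the highest held 19.3 CPM. The fitted change was -2.64 ± 1.23 (SE, edgeR adjusted p = 0.126). Switching between 0 and a clear count within 1 group was seen in other members too. In 15 of the 200, a library of some sorted group was at 0 while another of that group held at least 50 counts, against 2.09% of all rows tested. Of these 15, 5 were called lower in KO mice at 24 h, against 138 of the other 185. The check used WT libraries of the selection and KO libraries of the test, so nothing is read from these counts and shares. The member with the highest fitted KO change, row 35193, was one of these 15 and was named after its values were seen. It was at 0 in 4 of 6 KO vehicle and 2 of 7 KO LPS 24 h libraries and reached 103 and 151 CPM in others, and its change of 1.60 ± 1.54 (SE, edgeR adjusted p = 0.506) was not called. Reads that could be shared with a near-identical gene cannot be assessed without row names, and its part in such rows was not tested.

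**Figure D3:**
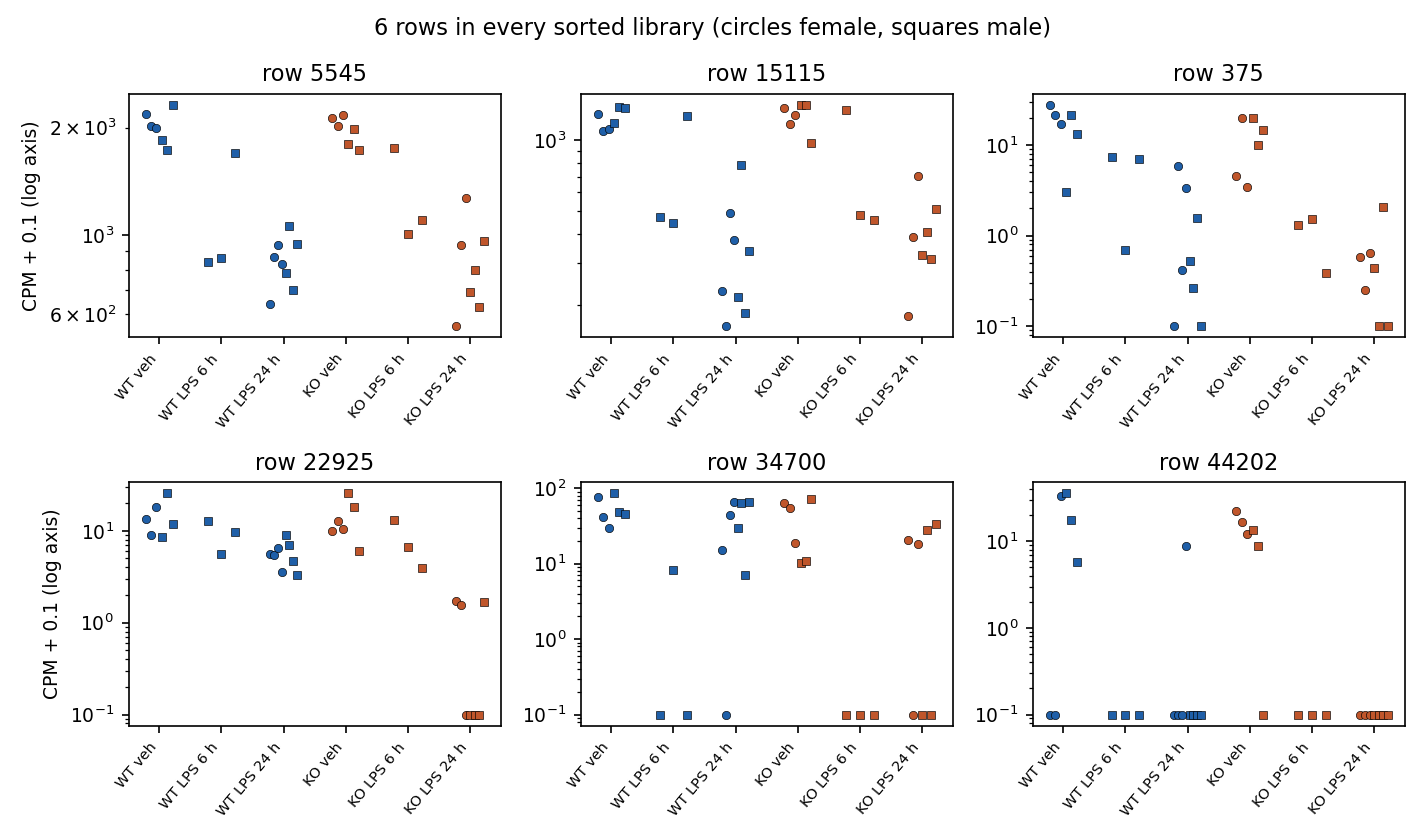
CPM + 0.1 on a log axis for 6 members in each sorted library, by genotype and treatment (blue WT, orange KO, circles female, squares male; points at 0.1 are 0 counts). Rows 5545 and 15115 show KO LPS 24 h libraries below all KO vehicle libraries, and row 34700 shows 0 beside clear counts within a group.

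Male and female KO mice were compared directly by the difference of their responses at 24 h. No member differed between the sexes, and none of the 15344 rows did (0.0% in either direction, edgeR adjusted p under 0.05). At an unadjusted p under 0.05, 5 members (2.53% of those tested) and 904 rows (5.89%) were called, and DESeq2 called no member. The median difference over members was 0.15 on the log2 scale. The KO change in log2(CPM + 1) had a median of -1.39 in females and -1.21 in males. The summed level after LPS was 4849 ± 1356 CPM (SD, n = 3) in females and 4539 ± 344 CPM (SD, n = 4) in males. A p that misses the threshold does not show that the sexes responded alike.

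At 6 h, in males, the fall over the group rested on which libraries were used. The 3 KO libraries summed to 10356.5, 5278.3 and 5291.1 CPM over the members, and the first of these is library 71. The 3 WT libraries summed to 5390.3, 5044.6 and 9957.6 CPM, and the last is library 70. The KO male vehicle libraries ran from 9264.5 to 11497.9 CPM, so library 71 overlapped them and the other KO 6 h libraries did not. All 6 h libraries are numbered 68 to 73, and all vehicle and 24 h libraries lie within 3299 to 3402. Time after LPS and run of library numbers therefore cannot be told apart where 6 h is compared with vehicle or with 24 h.

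In the test of KO LPS 6 h against KO vehicle in males, 8 members fell and none rose, where 2.85% of all rows were called lower and 4.27% higher (edgeR, adjusted p under 0.05). The median fitted change was -0.68, against -0.01 over all rows. Without libraries 70 and 71, 59 members fell and 2 rose, against 8.32% and 8.58% of all rows, with a median of -1.22. Of the 8 members, 6 were called lower in both fits. At an unadjusted p under 0.05 in edgeR, 45 of 198 members were called with all libraries (22.7%, against 23.6% of all rows). Without libraries 70 and 71 these were 103 of 200 (51.5%, against 29.3%). DESeq2 on all libraries called 22 lower and none higher. Members called lower numbered 0 when the compared groups were fitted alone, 2 with a block for the replicate number, and 1 without KO 6 h replicate 2 or without replicate 3. The shares of all rows with DESeq2 and in these alternatives were not counted, so nothing about the members is read from those counts. Of the 8, 7 were also lower at 24 h, and without libraries 70 and 71 the same held for 56 of 59. Both comparisons share the KO male vehicle libraries, and 143 of the 200 members were lower at 24 h, so nothing is read from this overlap.

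Row 375 was among the largest called falls at 6 h. Its KO male vehicle libraries held 19.7, 10.0 and 14.4 CPM and its KO 6 h libraries 1.21, 1.44 and 0.28. The groups did not overlap, and the fitted change was -3.97 ± 1.18 (SE, edgeR adjusted p = 0.04), with an adjusted p of 0.0501 without libraries 70 and 71. At 24 h it had a median of 0.34 CPM over the 7 KO LPS libraries, and its change from vehicle was -4.47 ± 0.852 (SE, edgeR adjusted p = 0.00032).

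Row 34700 was the member called lower at 6 h and not at 24 h. It held 9.99, 10.9 and 72.6 CPM in KO male vehicle libraries and 0 counts in all 3 KO 6 h libraries. Against a floor of 3 counts over the 6 h group it was at least 215-fold lower than its male vehicle mean of 31.2 CPM (edgeR adjusted p = 0.037, and 0.0445 without libraries 70 and 71). The call was lost in 6 of 12 alternatives, with edgeR adjusted p of 0.164 for the compared groups alone, 0.0908 with the replicate block and 0.138 without KO male vehicle replicate 3. At 24 h it was at 0 in 3 of 7 KO libraries and reached 33.4 CPM in another, with a change of -1.37 ± 0.985 (SE, edgeR adjusted p = 0.35). It is one of the rows that switched between 0 and clear counts within a group.

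The members called higher at 6 h without libraries 70 and 71 were rows 2240 and 42331, named after their values were seen. Row 42331 held 10.1, 4.76 and 10.1 CPM in KO male vehicle libraries. Its KO 6 h libraries held 12.2, 19.3 and 21.7 CPM, all above vehicle, and its 4 KO male 24 h libraries held 1.63 to 3.07 CPM, all below vehicle. Without libraries 70 and 71 its change at 6 h was 1.21 ± 0.415 (SE, edgeR adjusted p = 0.0446).

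**Figure D4:**
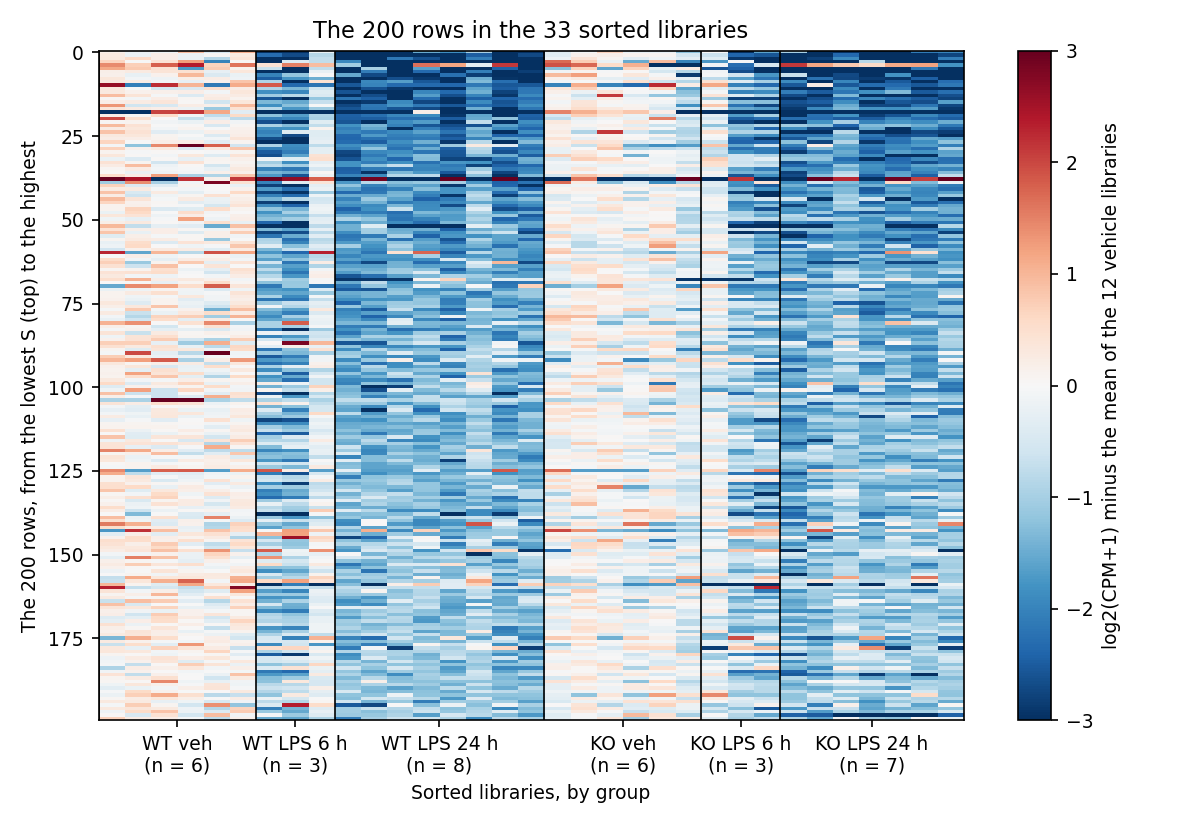
Difference in log2(CPM + 1) from the mean of the 12 vehicle libraries (colour) for the 200 members (vertical axis, lowest S on top) in the 33 sorted libraries (horizontal axis, by group). The LPS 24 h libraries of both genotypes are mostly blue (lower), and 1 library in each 6 h group is paler than the others.

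The times were also compared directly, as KO LPS 6 h minus KO LPS 24 h in males. With all libraries, 23 members were higher at 6 h and none lower, where 2.93% of all rows were called higher and 3.55% lower (edgeR, adjusted p under 0.05). The median difference was 0.65, against 0.03 over all rows. All 23 were also called lower at 24 h than with vehicle, a comparison that shares the 24 h libraries. Without libraries 70 and 71, 15 members were higher and 5 lower, against 4.25% and 4.87% of all rows, with a median of 0.23. The 15 were among the 23. Members called higher numbered 8 when the compared groups were fitted alone, 10 with the replicate block, 13 without KO 6 h replicate 1 and 15 without KO male 24 h replicate 1. Here too the shares of all rows in these alternatives were not counted. At an unadjusted p under 0.05, 54 of 198 members were called with all libraries (27.3%, against 20.7% of all rows) and 45 of 200 without libraries 70 and 71 (22.5%, against 23.3%).

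Row 22925 held a higher level at 6 h than at 24 h in both fits. Its KO 6 h libraries held 13.1, 6.61 and 3.8 CPM, while the KO male 24 h libraries were at 0 in 3 and at 1.59 CPM in the fourth. The groups did not overlap, and the difference was 4.07 ± 0.859 (SE, edgeR adjusted p = 0.0043), with 3.49 and an adjusted p of 0.016 without libraries 70 and 71. From vehicle to LPS 24 h in KO mice its fitted change was -4.27 ± 0.616 (SE, edgeR adjusted p = 1.2e-05), and its KO mean moved from 13.8 to 0.667 CPM. The WT means were 14.4 CPM with vehicle and 5.56 after LPS, and the difference between the genotypes' responses was not tested, since the WT libraries chose the row.

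Row 31733 was the other named riser, and its call rested on library 71. It held 10.6 CPM there and 0.431 and 0 in the other KO 6 h libraries, against 0 to 0.45 CPM in the KO male 24 h libraries. The difference was 4.63 ± 1.40 (SE, edgeR adjusted p = 0.0445), and without libraries 70 and 71 it was 0.66 with an adjusted p of 0.853.

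The genotypes were compared at 6 h, where neither group had a part in the selection. No member differed between KO and WT males with all libraries or without libraries 70 and 71 (edgeR, adjusted p under 0.05). Of all rows tested, 0.013% were called lower and 0.00652% higher in KO, and without libraries 70 and 71 the shares were 0.0% and 0.0253%. At an unadjusted p under 0.05, 2 members were called with all libraries (1.01%, against 2.89% of all rows) and 15 without libraries 70 and 71 (7.5%, against 4.28%), and DESeq2 called no member. The median difference was 0.16 with all libraries and 0.22 without libraries 70 and 71. The self-test on simulated counts was run for the 24 h comparison alone, so the power of 3 libraries against 3 is not known. Other contrasts of the genotypes in sorted cells use WT libraries of the selection and are given as values. The KO vehicle mean lay below the WT vehicle mean in 167 of the 200 members, with a median difference of -0.21, and the selection favoured rows with high WT vehicle values. From WT vehicle to WT LPS 6 h, the change in log2(CPM + 1) reached -1 or lower in 104 members, against 2.97% of rows. Without library 70 it did so in 140 members, against 4.81% of rows. Both shares are over all rows with a sorted count, many of which are too low to fall by 1. The WT male vehicle libraries were also used by the selection, which favoured rows high in them. A fall from them was therefore favoured too, and nothing is read from the counts of members at WT 6 h.

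In culture the members were mostly faint. All 6 culture group means lay under 1 CPM in 122 of the 200 members, and 11 had no count in any of the 34 cultures. By comparison, 14.6% of the 15344 rows tested in sorted cells lay under 1 CPM in every culture group, and 60 of the 120 rows past the first 200 did (50.0%). At such levels log2(CPM + 1) can hardly move by 1, so the culture limits could not remove these rows. The other 78 members had a culture group mean of 1 CPM or more, and 29 of them one of 10 CPM or more. WT vehicle cultures exceeded sorted WT vehicle libraries in 4 members. Summed over the members, cultures held 1643.6 to 2634.6 CPM per library, below every sorted library.

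**Figure D5:**
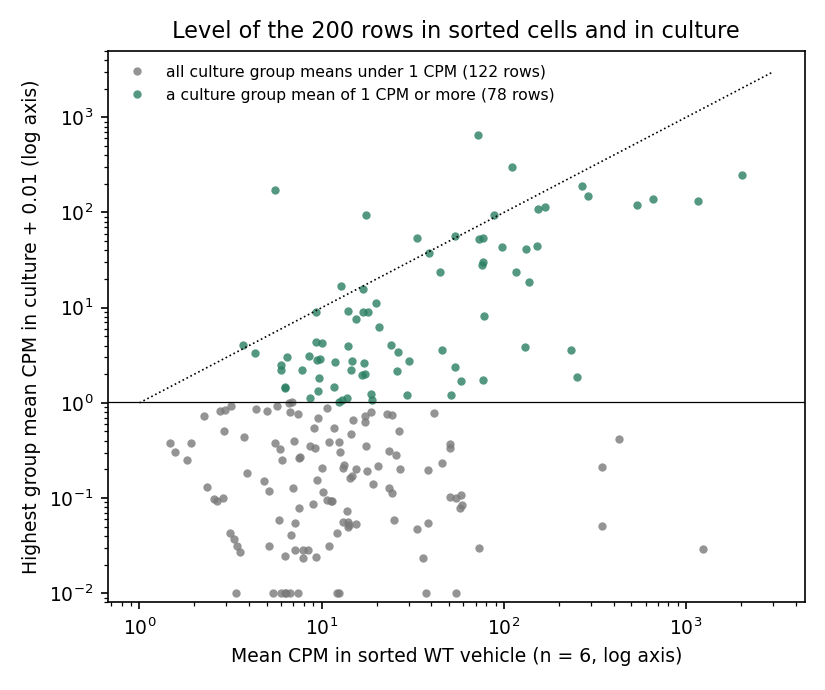
Highest culture group mean (CPM + 0.01, log axis) against the mean of the 6 sorted WT vehicle libraries (CPM, log axis) for each of the 200 members. The horizontal line marks 1 CPM, under which 122 members lie in every culture group, and the dotted line marks equal levels.

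The fall in sorted KO cells was seen on both sides of that line. It was called in 89 of the 122 members under 1 CPM in culture, with a median fitted change of -1.59. It was called in 54 of the 78 with a culture group mean of 1 CPM or more, with a median of -1.23. Among all rows tested 10.8% were called lower, and their shares on each side of 1 CPM were not counted. The KO cultures with LPS, which the selection did not use, share their KO vehicle libraries with it and are given as values. Their change in log2(CPM + 1) ran from -0.85 to 0.74 over the members, and none reached -1 or 1, against 1.72% and 2.14% of the 28306 rows with a culture count. For the 122 members under 1 CPM this was nearly fixed. The others had passed limits that use the same KO vehicle libraries, so nothing is read from these shares. The summed level was 2536 ± 75.3 CPM (SD, n = 6) in KO vehicle cultures and 2382 ± 129 CPM (SD, n = 5) with LPS. In WT cultures, which chose the rows, it was 2308 ± 146 CPM with vehicle and 1791 ± 82.5 CPM with LPS (SD, n = 6 each).

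Rows that fell in sorted WT cells but failed a culture limit also fell in KO cells, in 317 of 522 with a median of -1.07 (edgeR, adjusted p under 0.05). The 120 rows past the first 200 fell in 55, with a median of -0.95. By comparison, 10.8% of all rows tested were called lower. These sets were cut on S in WT, so their order is given as a description.

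Many members stood late in the tables. After row 30000 stood 73 of the 200 members (36.5%), against 11.5% of all rows tested in sorted cells. Of the 120 rows that met the same limits past the first 200, 40 stood there (33.3%), so this is shared by the rows that met the limits. Of the rows that failed a culture limit, 1.92% stood there. What the order of the tables stands for is not given in the sources used here. Of the 73 late members, 65 lay under 1 CPM in every culture group, against 57 of the 127 earlier ones. The fall in KO mice at 24 h was called in 53 of the 73 and in 90 of the 127. Of all rows tested 10.8% were called lower, and their shares by position were not counted. In 19 members another member stood within 5 rows. The densest stretch of 20 rows, found after seeing the data, held 4 members between rows 22925 and 22942, all 4 called lower in KO mice, and 3 further rows there met every limit without being among the first 200.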

How the data were processed

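The deposited values are raw counts, whole numbers for each row of 33 sorted and 34 culture libraries. Per the submitters' processing notes, which state no order or settings, GRCm38 is listed as a build and the tools listed include STAR 2.7.10a, Salmon 1.10.1 and Trim Galore 0.6.7. The members, rules and lists were chosen with earlier results of these data known. All 33 sorted libraries entered 1 fit with a mean per genotype, sex, treatment and time, in edgeR 4.0.16 (R 4.3.3). It used TMM scaling, filterByExpr (minimum count 10, minimum total 15) and two-sided quasi-likelihood tests adjusted over all rows by Benjamini-Hochberg, called under 0.05. The sexes were weighted equally. WT vehicle, WT LPS 24 h and culture values are described without a test, since the selection used them. On counts simulated for the 24 h comparison, the test found 57% of the 2-fold changes and 93% of the 4-fold ones, and 5 of 14998 rows were called in error.

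Named rows were, for each test, the 2 largest called falls and the 2 largest called rises whose mean log2 CPM was 1 or more (at 24 h with 1 direction in both sexes). The 2 highest members in WT vehicle libraries, the lowest S and the rows nearest to the limits were added. Metadata that came with the counts call the sorted cells cultured microglia, and the labels were followed. No pair of libraries of a group agreed within counting noise (chi-square per degree of freedom at least 12.92), and p-values measure the spread between these libraries. Floors cover counting error only, whereas the SE values come from the quasi-likelihood test and include the spread between libraries. Same-numbered sorted KO vehicle and LPS 24 h libraries did not deviate together, so they were not treated as pairs. Many culture libraries share a number in their name across treatments. What a shared number stands for was not tested, and culture SDs take the libraries as separate. Marker and gene lists, promoters and proteins were not used, since no row has a name. Alternatives tried were DESeq2 1.42.0, other size factors, no filter, fewer groups, each replicate left out, a replicate block, runs of library numbers, other offsets and sex means.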

Additional observations from a re-analysis of the deposited data

Results flagged for a closer look

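In groups of 4 to 10 libraries, 1 library at an end of the range can stand far from the rest by Dixon's criterion at 95%. Of 54 groups checked, 7 held such a library. Chance gives about 1 in 20 for normally distributed values. Rows with most libraries at or near 0 are not so distributed, so nothing is read from the number of flags. Over the summed level of the 200 members, WT male LPS 24 h replicate 2 stood highest in its group at 6310 CPM, and KO male vehicle replicate 3 lowest in its group at 9260 CPM. Row 375 held 1.95 CPM in KO male LPS 24 h replicate 3, and row 31733 held 1.36 CPM in KO female LPS 24 h replicate 3, each highest in its group. Row 35488 held 1.47 CPM in WT female LPS 24 h replicate 1 and 4.26 CPM in KO male LPS 24 h replicate 1, where the other libraries were at or near 0. Row 44202 held 8.63 CPM in WT female LPS 24 h replicate 4 and 0 in the other 7 libraries of that group.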

How the results depend on the processing

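For KO LPS 24 h against vehicle, leaving out each library gave 120 to 146 members lower and 0 to 1 higher. The member higher was row 18504, called without KO male vehicle replicate 1, which held 248 CPM where the other KO male vehicle libraries were at 0. The second run of library numbers alone gave 62 lower, with 6 of 13 libraries. The median change stayed between -1.36 and -1.25 when each library was left out. At 6 h against vehicle, members lower numbered 0 with the compared groups alone, 2 with the replicate block, 22 with DESeq2, 59 without libraries 70 and 71 (2 higher) and 1 to 48 with 1 library left out. The 48 came without KO 6 h replicate 1 (library 71), while leaving out KO male vehicle replicate 1, 2 or 3 gave 4, 3 and 2, and KO 6 h replicate 2 or 3 gave 1 each. For 6 h minus 24 h, members higher numbered 8 with the compared groups alone, 10 with the block, 15 without libraries 70 and 71 and 13 to 21 with 1 library left out (13 without KO 6 h replicate 1, 15 without KO 24 h replicate 1). Members lower there numbered 1 without the filter and with DESeq2, 5 without libraries 70 and 71 and 0 to 1 with 1 library left out. The cause of these shifts was not tested. Apart from the fits by run and without libraries 70 and 71, the shares of all rows in these alternatives were not counted. The shifts are therefore not read as results about the members. Sex and genotype differences stayed at 0 members in every alternative run. With the replicate block 135 members were lower at 24 h. Other offsets, TMM-scaled CPM and sex means gave 247 to 409 rows that met the rule, and 146 to 199 of the 200 members were kept. Leaving out each WT library kept 197 to 200 members at the sorted limit of -1. The highest S of a member was -1.182, and the cut to 200 rows was not redone. That count therefore does not test which rows would be members. Row 375 at 6 h lost its call in 9 of 12 alternatives, rows 34700 and 31733 in 6 of 12 each, row 22925 in 1 of 13 and rows 44202 and 35488 in 1 of 22 each.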
